A study of Mus musculus with 12 samples.

Results

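The effect of deleting Lamtor2 was compared between an early and a later stage of blood cell formation, by the interaction (LSK KO minus LSK WT) minus (GMP KO minus GMP WT). All 12 arrays of the series entered the comparison, which was made for each of the 21640 probe sets, of 34760 in the deposited table, that had exactly 1 gene symbol. These stand for 19937 genes. A positive interaction means that KO minus WT was higher in LSK than in GMP, and a negative one that it was lower. LSK, sorted as Lin- Sca1+ c-Kit+, is the bone marrow fraction that holds stem cells and multipotent progenitors. GMP descend from it and give rise to granulocytes and macrophages, and they were sorted as c-Kit+ cells with CD34 and FcγR but without Sca1 or lineage markers. KO samples came from C57BL/6J mice with floxed Lamtor2 alleles (Lamtor2 f/f), and WT samples from mice with Lamtor2 wt/wt. All 4 groups had 3 arrays, all mice carried Mx1-Cre, and all received pIpC intraperitoneally, with cells sorted on day 14 after it. The labels give 3 mice per genotype but not which LSK and GMP samples came from 1 mouse, and the p-values measure the spread between these samples only. Mx1-Cre is driven by an interferon-responsive promoter that is also active outside progenitors, so changes that began in other cells of these mice cannot be told apart from changes that began in the sorted cells.

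Lamtor2 is a subunit of Ragulator, a complex on the surface of late endosomes and lysosomes. Ragulator anchors the Rag GTPases, which bring mTORC1 to the lysosome when amino acids are plentiful, and the Lamtor2-Lamtor3 pair also binds MEK and so places ERK signalling on endosomes. Active mTORC1 promotes ribosome and protein synthesis and keeps TFEB, which drives transcription of lysosomal genes, out of the nucleus.

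Values are RMA values on the log2 scale, so a difference of 1 is a 2-fold difference, and effects are given with the SE of the limma fit. Defining markers were checked in the WT arrays. Mecom, Hlf, Procr and Slamf1, markers of stem cells, were higher in LSK. Mpo, Elane, Ctsg, Prtn3 and Fcgr3, markers of GMP, were higher in GMP, without overlap for any of the 9. Cd34, part of the GMP gate, and Kit, which encodes c-Kit of both gates, were lower in GMP. In WT arrays LSK minus GMP was 0.67 ± 0.21 for Cd34 and 0.99 ± 0.14 for Kit. Values of the gene for Sca1, which separates the gates, are not given here. Lamtor2 read between 4.95 and 5.77 in the KO arrays, and 5.77 is used below as the reading of a deleted gene. A difference from a group mean at or below it is a lower bound. This holds also where it is not repeated, as for the rises in GMP of Lgmn, Gas6, Wfdc17, Hacd4, Rtp4 and Blnk. GMP KO replicate 1 stood apart (its correlation with the rest of its group averaged 0.979), so counts are also given without it. No pair of arrays was identical.

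The effect of Lamtor2 loss differed between LSK and GMP at 1653 probe sets, 7.64% of those tested (limma, Benjamini-Hochberg adjusted p under 0.05). It was higher in LSK at 1112 (5.14%) and lower in LSK at 541 (2.5%). They stand for 1590 genes, and at 404 of the probe sets the 2 effects differed at least 2-fold, 204 higher and 200 lower. Without GMP KO replicate 1 the calls numbered 2123 (9.81%), with 1352 (6.25%) higher and 771 (3.56%) lower, and 1571 of the 1653 were among them in the same direction. The share of higher calls depended on scaling: it was 67.3% here, 53.4% after repeated quantile normalisation (592 higher, 516 lower) and 81% after centring each array on its median (1700 higher, 400 lower). The median interaction over all probe sets was -0.03, and centring shifted it by 0.09. Leaving out 1 array left between 785 calls, without GMP WT replicate 2, and 2123.

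Calls in each cell type alone were made from the same fit, in which 915 probe sets (4.23%) were called for LSK, with 2.39% rising and 1.83% falling, and 3363 (15.5%) for GMP, with 5.58% rising and 9.96% falling. Most interactions with a higher value in LSK came from a fall in GMP: 783 of the 1112 fell in GMP and were not called in LSK. Another 123 rose in LSK and were not called in GMP, and 52 rose in LSK and fell in GMP. Among the 541 lower in LSK, 309 rose in GMP and were not called in LSK, 41 rose in both with the larger rise in GMP, 119 fell in LSK and were not called in GMP, and 15 fell in LSK and rose in GMP. With GMP KO replicate 1 left out, the rises in LSK without a call in GMP numbered 254 and the opposite calls 88 and 36. The rises in both with the lower value in LSK then numbered 90, and the falls in LSK without a call in GMP 187. For 53 of the 119 that fell in LSK without a call in GMP, both GMP means were at or below the reading of a deleted gene, so a fall there could not have been read. At 1632 of the 1653 probe sets all differences between LSK KO and LSK WT arrays lay on 1 side of all those between GMP KO and GMP WT arrays, as they did at 14.7% of all probe sets. The calls were made from the same arrays and that share includes them, so the separation is no further support for the calls.

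**Figure D1:**
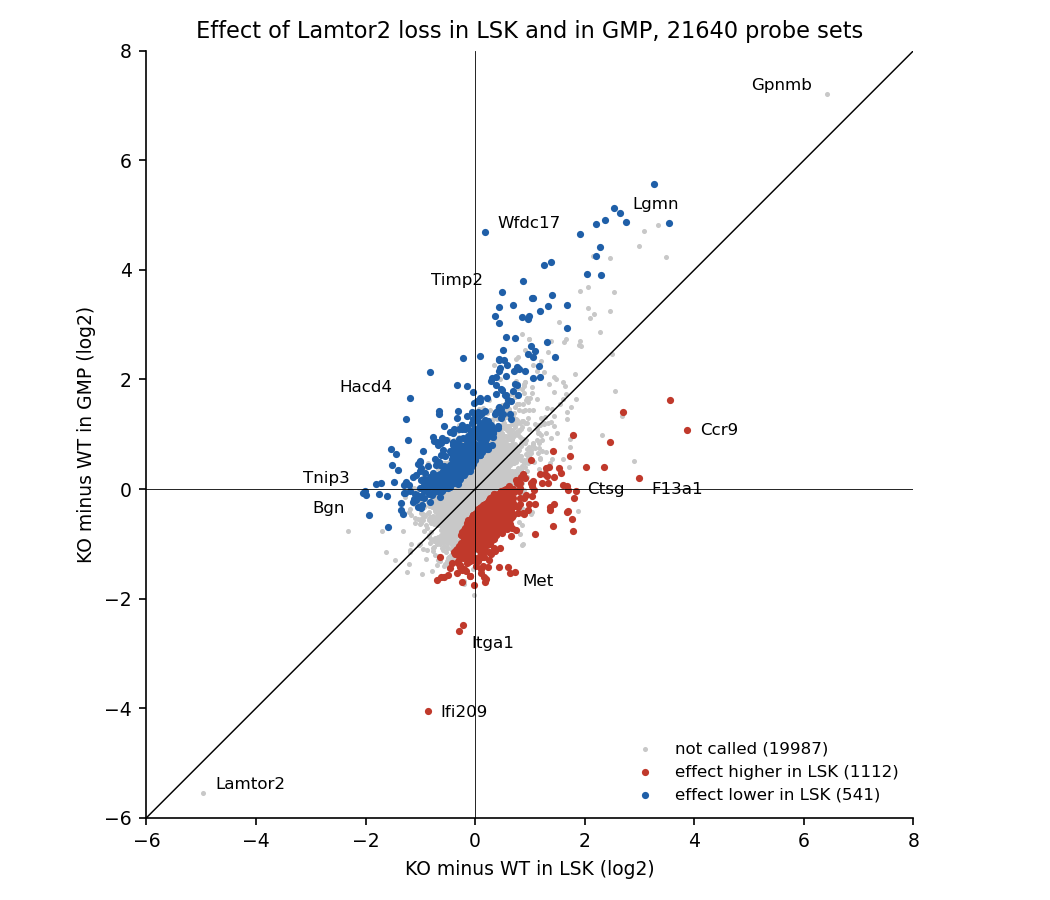
KO minus WT in LSK (x axis, log2) against KO minus WT in GMP (y axis, log2) for 21640 probe sets. Points on the diagonal line have equal effects, the 1112 probe sets called higher in LSK (red) lie below it and the 541 called lower (blue) above it at the upper left, while Gpnmb and Lamtor2, whose effects are lower bounds, were not called.

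**Figure D2:**
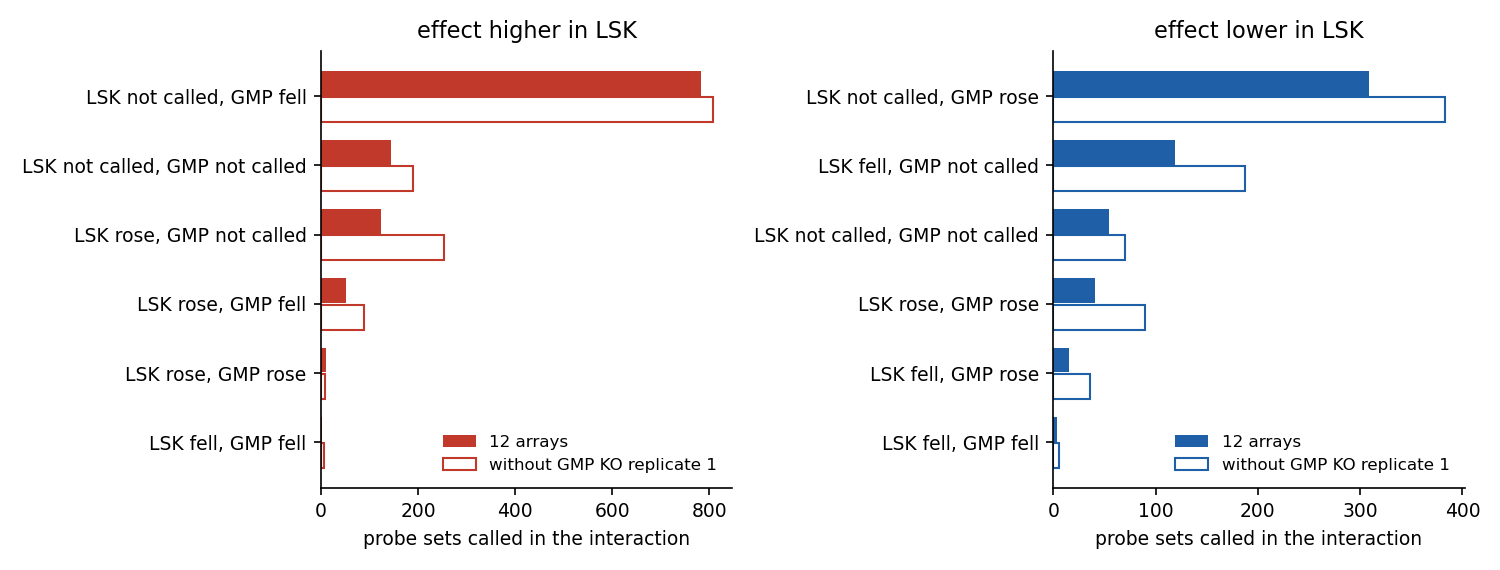
Number of probe sets called in the interaction (x axis) by whether KO minus WT was called in LSK and in GMP, for effects higher in LSK (left, red) and lower in LSK (right, blue). Filled bars use all 12 arrays and open bars leave out GMP KO replicate 1, and the longest filled bars are 783 falls in GMP (left) and 309 rises in GMP (right).

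Lamtor2 itself fell to the same range of readings in both populations. Its values were 10.39, 10.48 and 10.31 in LSK WT and 5.11, 5.40 and 5.77 in LSK KO, and 10.80, 10.82 and 10.61 in GMP WT and 5.53, 5.12 and 4.95 in GMP KO. The fall was 4.97 ± 0.17 (SE) in LSK and 5.54 ± 0.17 in GMP. The interaction was 0.58 (95% interval 0.06 to 1.09) and was not called (adjusted p = 0.17), although it was without GMP KO replicate 1 (0.74, adjusted p = 0.042). With low values raised to 5.77 it was 0.35 (adjusted p = 0.045). Every KO array then reads 5.77, so this value is by construction the gap between the WT groups and does not measure the KO effect. Both falls end at the reading of a deleted gene and are lower bounds. The partner subunits had no called interaction: it was -0.46 for Lamtor1, -0.35 for Lamtor3, 0.22 for Lamtor4 and 0.13 for Lamtor5. For Lamtor4 and Lamtor5 the sign turned when quantile normalisation was repeated, and Lamtor1 was then called (-0.63, adjusted p = 0.040).

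Among 17 genes of Ragulator, the Rag GTPases and their regulators, 2 were called lower in LSK, Fnip2 and Tfeb, and 0 higher. The median interaction of the list was -0.24. Fnip2 encodes a partner of folliculin, whose complex acts on the Rag GTPases. Fnip2 was 7.39, 7.34 and 7.40 in LSK WT, 8.40, 9.08 and 8.65 in LSK KO, 7.06, 7.15 and 6.89 in GMP WT and 10.54, 10.33 and 10.25 in GMP KO. KO arrays lay above WT arrays in both populations, and the rise was 1.33 ± 0.15 in LSK against 3.34 ± 0.15 in GMP, an interaction of -2.01 ± 0.21 (adjusted p = 5.0e-04). Tfeb rose by 0.41 in GMP and stood at -0.08 in LSK (interaction -0.49, adjusted p = 0.041), a call that held in only 2 of the 12 fits without 1 array. Of 25 genes of the mTORC1 pathway, Deptor, which encodes an mTOR-binding inhibitor, was called higher (0.70 ± 0.15, adjusted p = 0.014) with a rise of 0.51 in LSK. Castor2, which encodes a relative of the arginine sensor, was called lower (-0.65, adjusted p = 0.042) with a fall of 0.99 in LSK. This probe set was called in 3 of the 12 fits without 1 array. Another Castor2 probe set had an interaction of -0.86 (adjusted p = 0.021) with a fall of 1.31 in LSK, and was called in 9 of the 12. Its GMP KO mean was at or below the reading of a deleted gene. The list, with 1 called higher and 1 lower against 5.14% and 2.5% of all probe sets, had a median interaction of 0.06.

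Many lysosomal genes rose in both populations with few called interactions, and most of the called ones rose more in GMP. Of 30 lysosomal hydrolases and activators, 12 rose in LSK and 17 in GMP, with medians of 0.38 and 0.49, while the interaction was called higher for 1 and lower for 2 (median -0.03). The 16 subunits of the vacuolar ATPase, the proton pump of the lysosome, had median effects of 0.41 in LSK and 0.38 in GMP and 0 called interactions in limma, with 6 at an unadjusted p under 0.05 and a median of -0.13. With GMP KO replicate 1 left out, 1 was called higher and 1 lower. The 13 cathepsins and legumain had medians of 1.07 and 1.07, with 1 call and a median interaction of -0.31. With GMP KO replicate 1 left out, the called hydrolases were 1 higher and 5 lower.

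The 3 of 16 lysosomal membrane proteins with a called interaction were all lower in LSK (median of the list -0.20). Mcoln1 and Mcoln2 encode mucolipins, cation channels of lysosomes and endosomes, and Npc1 exports cholesterol from the lysosome. Mcoln1 had a mean of 8.06 ± 0.08 (SD, n = 3) in LSK WT and 8.19 ± 0.03 in LSK KO, against 7.86, 7.86 and 7.87 in GMP WT and 8.78, 8.78 and 8.97 in GMP KO. The KO and WT arrays of GMP were thus far apart and those of LSK nearly met, and the interaction was -0.85 ± 0.12 (adjusted p = 0.0025). Mcoln2 was 8.74, 8.87 and 8.86 in LSK WT and 8.25, 8.97 and 8.83 in LSK KO, which overlapped. In GMP it rose from 6.05, 6.69 and 6.46 to 8.27, 8.15 and 8.44, and the interaction was -2.02 ± 0.26 (adjusted p = 0.0018). Npc1 rose by 1.74 ± 0.13 in GMP and stood at 0.38 ± 0.13 in LSK (interaction -1.36 ± 0.18, adjusted p = 0.0018).

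Among soluble lysosomal proteins, legumain, an asparaginyl endopeptidase encoded by Lgmn, rose in both populations. Lgmn was 6.35, 5.92 and 6.25 in LSK WT, 8.35, 9.48 and 8.63 in LSK KO, 5.70, 5.79 and 5.54 in GMP WT and 10.41, 10.76 and 10.98 in GMP KO. KO and WT arrays did not overlap in either population, and the rise was 2.65 ± 0.24 in LSK and 5.04 ± 0.24 in GMP (interaction -2.39 ± 0.34, adjusted p = 0.0023). Psap, which encodes the precursor of the saposins, rose by 0.90 in LSK and 2.16 in GMP (interaction -1.25 ± 0.26, adjusted p = 0.014). Ids, the sulfatase deficient in Hunter syndrome, rose by 0.64 in GMP and stood at -0.14 in LSK (interaction -0.78, adjusted p = 0.0060). Arsb, another sulfatase, had the opposite interaction (0.83 ± 0.15, adjusted p = 0.0078), with a fall of 0.72 in GMP. The other Arsb probe set also fell in GMP, by 0.57, but its interaction of 0.45 was not called (adjusted p = 0.091). Of 23 core autophagy genes, Sqstm1, a cargo receptor, and Gabarap, a protein of the autophagosome membrane, rose by 0.97 and 0.74 in GMP and stood at 0.29 and 0.02 in LSK, with interactions of -0.68 and -0.71. The list had a median of 0.01. Atg3, the E2-like enzyme that joins lipid to Gabarap and its relatives, was called higher (0.75) with a fall of 0.44 in GMP.

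The promoters of these genes are shown because CACGTG, the core of the element bound by TFEB and its relatives and also by Myc, stands in them and Mcoln1, Mcoln2 and Lgmn all rose in GMP. The RefSeq windows (GRCm38.p6) were searched from 250 bases before to 50 bases after the gene start. The motif reads the same on both strands and was in 8.26% of 19115 windows of the genes tested. Below are the 250 bases before the start of Mcoln1 (chr8:3500269-3500518, plus strand), Mcoln2 (chr3:146149924-146150173, plus strand) and Lgmn (chr12:102439093-102439342, minus strand), with CACGTG in capitals, and of Met (chr6:17463707-17463956, plus strand), the receptor for hepatocyte growth factor, which is described further on.
Mcoln1: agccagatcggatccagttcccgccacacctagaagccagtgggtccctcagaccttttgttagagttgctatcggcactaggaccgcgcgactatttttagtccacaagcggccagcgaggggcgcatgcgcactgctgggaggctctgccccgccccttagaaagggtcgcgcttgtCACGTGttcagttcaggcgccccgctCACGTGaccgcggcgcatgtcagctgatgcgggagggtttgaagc
Mcoln2: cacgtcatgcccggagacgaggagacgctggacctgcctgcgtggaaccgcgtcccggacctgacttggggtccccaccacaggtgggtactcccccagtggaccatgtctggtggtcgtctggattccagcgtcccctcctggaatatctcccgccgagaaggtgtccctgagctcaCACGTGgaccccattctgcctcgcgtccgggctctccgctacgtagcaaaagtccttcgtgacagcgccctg
Lgmn: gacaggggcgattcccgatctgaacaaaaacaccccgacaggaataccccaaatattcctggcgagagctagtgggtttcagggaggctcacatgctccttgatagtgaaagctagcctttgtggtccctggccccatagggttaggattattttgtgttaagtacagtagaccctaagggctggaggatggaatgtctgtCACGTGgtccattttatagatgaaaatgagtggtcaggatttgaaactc
Met: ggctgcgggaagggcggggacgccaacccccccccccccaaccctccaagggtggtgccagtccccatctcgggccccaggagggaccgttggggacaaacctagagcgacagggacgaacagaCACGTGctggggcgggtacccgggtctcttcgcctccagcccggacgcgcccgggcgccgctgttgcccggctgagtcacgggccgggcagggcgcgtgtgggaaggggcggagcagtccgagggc
Mcoln1 has 2 matches in these bases and the others have 1 each. Atg3, which was called higher and fell in GMP, has 2 matches in its window and is not shown. The genes shown were picked for holding the motif, so they do not stand for all the lysosomal genes described. Lgmn has 2 windows in the table, for different starts, and the one shown was chosen because it holds the motif, which the other does not. A match is a description of the letters and not evidence that a factor bound there. CACGTG was in 12.7% of the windows of genes called higher and in 8.75% of those called lower. Among genes that rose in LSK and fell in GMP it was in 12 of 48 windows (25%), and among genes called lower that fell in LSK it was in 3.68%. The windows were not matched for base composition.

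Of 29 measured macrophage genes, 10 rose in LSK and 18 in GMP, with median effects of 0.65 and 1.73. The interaction was lower for 9 and higher for 0, and no other of the 48 lists had a lower median interaction (-0.79 against -0.03 over all probe sets). When GMP KO replicate 1 was left out it was lower for 12. It was lower for 5 in the fits with the fewest calls, among them those without GMP WT replicate 2 or LSK KO replicate 1. The mean over the list lay between 5.66 and 5.89 in LSK WT, 6.52 and 7.27 in LSK KO, 5.84 and 5.92 in GMP WT, and 7.72 and 8.10 in GMP KO. In such bulk samples fewer cells of a type and less RNA per cell cannot be told apart, and whether macrophages were among the sorted cells was not tested.

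C1qc, a chain of complement C1q made by macrophages, was 6.67, 6.95 and 6.02 in LSK WT and 8.12, 9.86 and 8.27 in LSK KO, and 5.89, 6.21 and 5.89 in GMP WT and 10.66, 10.81 and 11.02 in GMP KO. KO arrays lay above WT arrays in both, with a rise of 2.20 ± 0.37 in LSK and 4.83 ± 0.37 in GMP (interaction -2.63 ± 0.52, adjusted p = 0.010). Ms4a7, a membrane protein of macrophages, rose by 2.38 in LSK and 4.90 in GMP (interaction -2.53 ± 0.44, adjusted p = 0.0058). Lilr4b, an inhibitory receptor with close paralogues that its probe set may also bind, had an interaction of -2.59 ± 0.43 (adjusted p = 0.0050). Hmox1, which encodes haem oxygenase, rose in GMP and was not called in LSK. It was 7.30, 7.32 and 6.87 in LSK WT and 7.03, 7.62 and 7.12 in LSK KO, which overlapped, and moved from 6.28, 6.81 and 6.76 to 9.24, 8.74 and 9.16 in GMP (interaction -2.34 ± 0.28, adjusted p = 0.0011).

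The genes with the most negative interactions rose in GMP, and most of them were not called in LSK. Wfdc17, a secreted protein of activated macrophages, was 9.28, 9.09 and 9.04 in LSK WT and 8.67, 9.75 and 9.53 in LSK KO, and 5.35, 5.87 and 5.63 in GMP WT and 9.10, 10.96 and 10.85 in GMP KO. The LSK groups overlapped, and GMP KO lay above GMP WT. The interaction was -4.50 ± 0.57 (adjusted p = 0.0016), and -5.10 without GMP KO replicate 1, the lowest of its group. Timp2, an inhibitor of metalloproteinases, rose by 3.60 ± 0.27 in GMP and stood at 0.49 ± 0.27 in LSK (interaction -3.11, adjusted p = 0.0012). Emp1, a small membrane protein, rose by 3.15 ± 0.15 in GMP and stood at 0.36 ± 0.15 in LSK (interaction -2.79, adjusted p = 2.2e-04). Rgl1, an exchange factor for Ral, had values of 5.69, 6.04 and 6.02 in GMP WT and 9.17, 8.92 and 9.63 in GMP KO, with an interaction of -2.88 ± 0.26 (adjusted p = 2.4e-04). Ms4a4a, of a family whose close copies its probe set may also bind, had means at or below the reading of a deleted gene in both LSK groups and in GMP WT, and it reached 7.75, 8.92 and 8.36 in GMP KO (interaction -2.94 ± 0.33, adjusted p = 8.5e-04).

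Gas6, the ligand of the receptors Tyro3, Axl and Mertk by which phagocytes take up dead cells, was 6.58, 6.47 and 6.42 in LSK WT and 6.84, 7.32 and 7.36 in LSK KO. It was 5.34, 5.60 and 5.74 in GMP WT and 8.52, 9.14 and 9.12 in GMP KO. The GMP arrays were separated by more than 2 log2 units and the LSK arrays by less than 1, and the interaction was -2.68 ± 0.25 (adjusted p = 2.4e-04). Rgs1, a brake on chemokine receptor signalling, rose by 1.26 in LSK and 4.08 in GMP (-2.83 ± 0.38, adjusted p = 0.0018). Myof, a membrane repair protein, rose by 2.14 in GMP and stood at -0.83 ± 0.24 in LSK (-2.97, adjusted p = 9.5e-04). Fstl1 and Il7r had interactions of -2.77 and -2.75, which were no longer called when low values were raised to the reading of a deleted gene (adjusted p = 0.054 and 0.13).

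Lipid and chemokine genes of phagocytes were also called. Of 15 genes of cholesterol efflux and lipid handling, 4 were lower in LSK and 1, Lpl, was higher (median -0.49). Apoe rose by 1.67 in LSK and 3.36 in GMP (interaction -1.69, adjusted p = 0.014), and Abcg1, a cholesterol exporter, rose by 0.78 in GMP and stood at -0.14 in LSK (-0.92, adjusted p = 0.0073). Fabp4, a carrier of fatty acids, had an interaction of -2.13 (adjusted p = 0.015). With low values raised, Apoe and Fabp4 were not called (adjusted p = 0.053 and 0.084). The interaction of Apoe itself stayed at -1.69 there, so only its adjusted p moved, while that of Fabp4 moved to -1.91. Of 22 chemokine ligands 3 were lower and 1 was higher (median -0.31). The lower calls numbered 6 without GMP KO replicate 1 (median -0.17) and 1 without GMP WT replicate 1 or 2, LSK KO replicate 1 or 3 or LSK WT replicate 1. Ccl3, a chemokine for monocytes, was 8.01, 8.23 and 7.78 in LSK WT, 10.23, 10.58 and 11.50 in LSK KO, 6.11, 6.00 and 5.56 in GMP WT and 10.89, 10.28 and 11.12 in GMP KO. The KO arrays of the 2 populations overlapped and the WT arrays did not, and the interaction was -2.11 ± 0.41 (adjusted p = 0.0096). Ccl9, made by immature myeloid cells, rose by 0.99 in LSK and stood at -0.27 in GMP (interaction 1.25 ± 0.18, adjusted p = 0.0025).

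**Figure D3:**
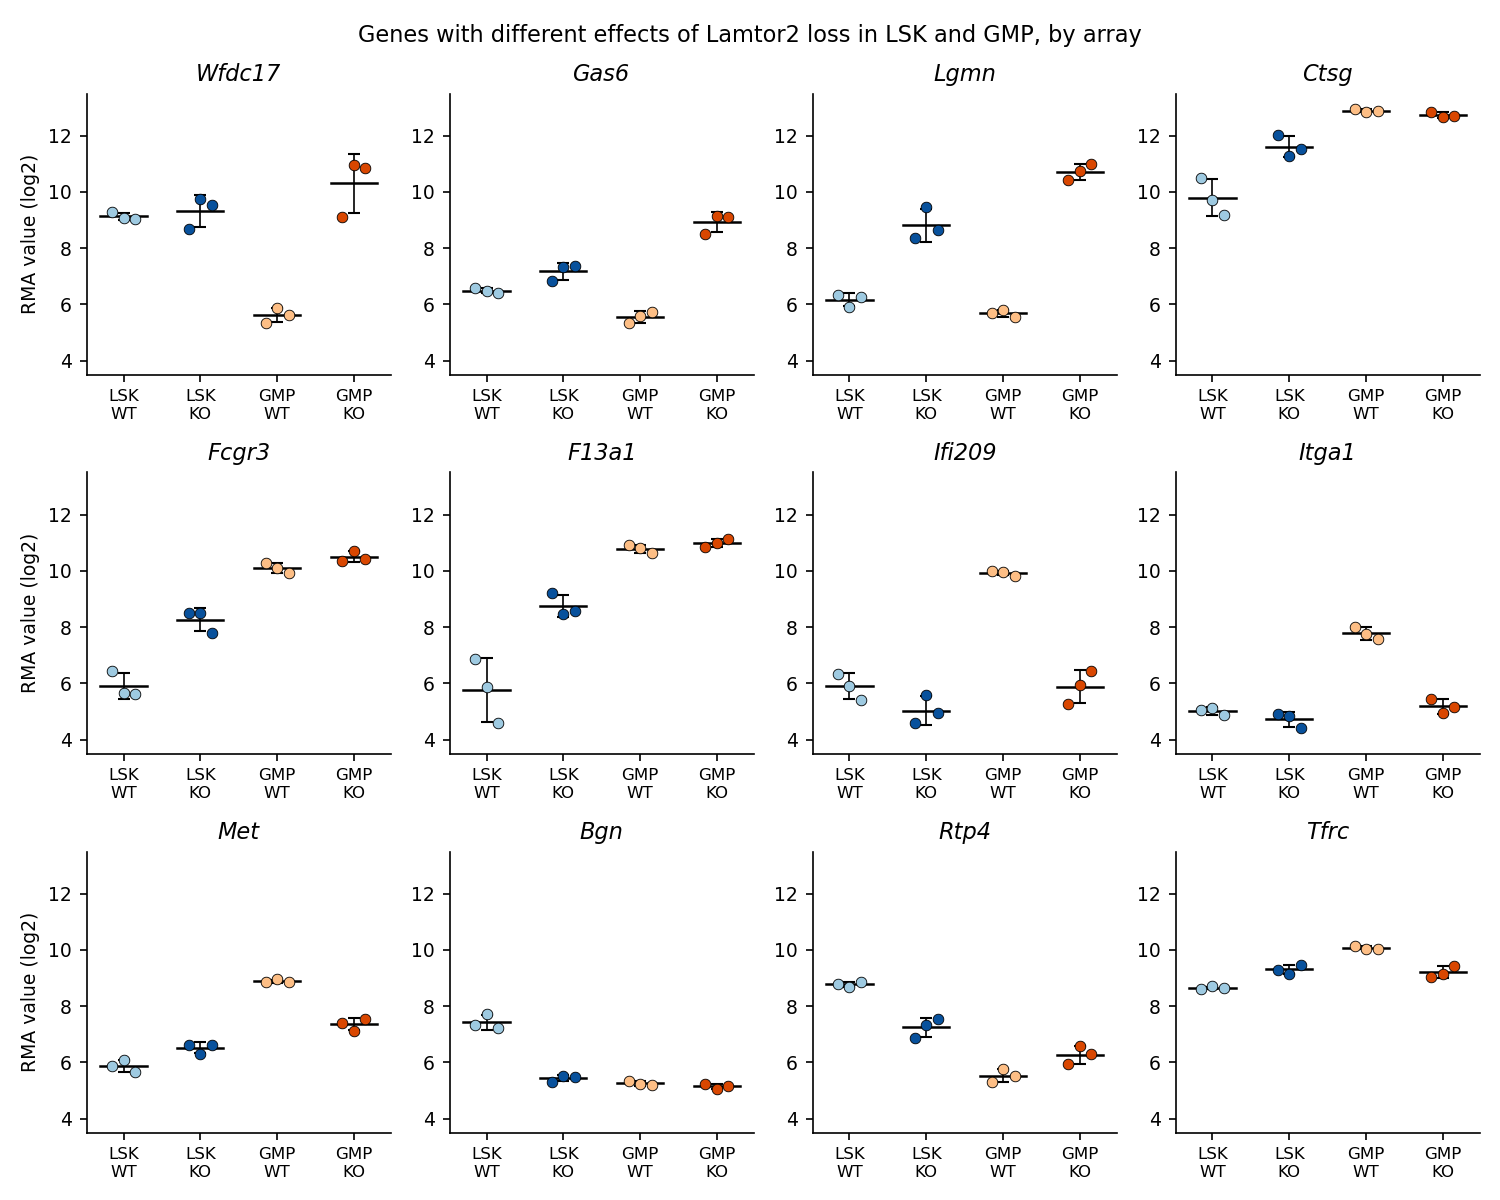
RMA value (y axis, log2) of 12 genes in each array, with 3 points per group, the group mean as a line and its SD as a bar. Wfdc17, Gas6 and Lgmn rose most in GMP KO, Ctsg, Fcgr3 and F13a1 rose in LSK KO, Bgn fell in LSK KO, Ifi209 and Itga1 fell in GMP KO, and Met, Rtp4 and Tfrc moved in opposite directions.

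Of 27 measured genes of primary granules and the GMP stage, 10 rose and 0 fell in LSK, and in GMP 9 fell and 1 rose, with median effects of 0.39 and -0.32, and the interaction was higher for 16 and lower for 0 (median 1.10). It was higher for 16 without GMP KO replicate 1 as well, and for 14 or more in each fit without 1 array. The list mean lay between 8.28 and 8.88 in LSK WT, 9.23 and 9.57 in LSK KO, 10.78 and 10.93 in GMP WT, and 10.48 and 10.57 in GMP KO.

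Fcgr3, a low-affinity receptor for IgG and part of the GMP sorting gate, was 6.45, 5.66 and 5.61 in LSK WT and 8.49, 8.50 and 7.80 in LSK KO. It was 10.29, 10.11 and 9.94 in GMP WT and 10.37, 10.72 and 10.43 in GMP KO. All LSK KO arrays lay above all LSK WT arrays and below all GMP arrays, and the interaction was 1.96 ± 0.32 (adjusted p = 0.0046). Ctsg, which encodes cathepsin G, a serine protease of primary granules, was 10.48, 9.72 and 9.19 in LSK WT, 12.01, 11.29 and 11.52 in LSK KO, 12.94, 12.85 and 12.87 in GMP WT and 12.85, 12.65 and 12.69 in GMP KO. It rose by 1.81 ± 0.25 in LSK and stood at -0.16 ± 0.25 in GMP (interaction 1.97 ± 0.36, adjusted p = 0.0073). F13a1, a coagulation factor subunit of monocytes and their progenitors, rose by 2.98 ± 0.40 in LSK and stood at 0.21 ± 0.40 in GMP (interaction 2.77, adjusted p = 0.012). Cst7, an inhibitor of cathepsins, rose by 1.67 in LSK and stood at 0.05 in GMP (interaction 1.62 ± 0.18, adjusted p = 8.2e-04).

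For other members of the list the difference came from GMP. Irf8, a transcription factor needed for monocytes and dendritic cells, was 10.01, 10.11 and 10.15 in GMP WT and had a mean of 8.90 ± 0.12 (SD, n = 3) in GMP KO. In LSK it was 7.92, 7.72 and 7.72 in WT and 7.74, 8.31 and 8.19 in KO, so that the LSK groups overlapped while those of GMP did not (interaction 1.49 ± 0.19, adjusted p = 0.0018). Prss57, a granule serine protease, fell by 1.41 in GMP and stood at 0.14 in LSK (interaction 1.55 ± 0.22, adjusted p = 0.0022). Prtn3, which encodes proteinase 3, stood at 0.54 in LSK (adjusted p = 0.062) and fell by 0.56 in GMP (interaction 1.10, adjusted p = 0.0090). Cebpa, the factor that starts granulocyte and macrophage commitment, rose by 1.23 in LSK and stood at 0.11 in GMP (interaction 1.12 ± 0.21, adjusted p = 0.0086). Not every marker was called: Mpo had an interaction of 0.55 (adjusted p = 0.11), Elane of 1.48 (adjusted p = 0.33) and Ms4a3 of 2.29 (adjusted p = 0.059). The 3 LSK WT arrays spread widely for Elane, at 9.67, 8.09 and 6.74.

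Further lists of the same lineages held fewer calls. Of 27 monocyte genes 5 were higher in LSK and 0 lower, with median effects of 0.71 in LSK and 0.63 in GMP and a median interaction of 0.23. Without GMP KO replicate 1 it was 5 higher and 3 lower, and without GMP WT replicate 2 it was 2 higher. Ccr2, the receptor that guides monocytes out of the marrow, was 6.20, 5.59 and 4.88 in LSK WT and 7.75, 6.96 and 7.34 in LSK KO, against 9.04, 9.29 and 9.16 in GMP WT and 7.92, 8.62 and 8.66 in GMP KO. LSK KO arrays were all above LSK WT and GMP KO arrays all below GMP WT (interaction 2.56 ± 0.42, adjusted p = 0.0045), though the GMP fall of 0.77 was not called (adjusted p = 0.10). Of 22 genes of secondary granules and neutrophil maturation 3 were higher and 0 lower, and the sign of the median interaction (0.30) depended on single arrays: it was -0.29 without LSK KO replicate 2, -0.23 without GMP WT replicate 1 and 0.63 without GMP KO replicate 1. The list mean lay between 6.64 and 8.02 in LSK WT, 6.98 and 8.03 in LSK KO, 7.30 and 8.52 in GMP WT and 7.28 and 8.48 in GMP KO, so KO and WT overlapped in both populations. It was highest in replicate 2 of LSK KO and in replicate 1 of the other 3 groups. Trem3, an activating receptor, rose by 1.10 in LSK and fell by 0.82 in GMP (interaction 1.92 ± 0.31, adjusted p = 0.0044), and Hp, which encodes haptoglobin, was called in 3 of the 12 fits without 1 array (adjusted p = 0.054 without GMP KO replicate 1) and not after repeated quantile normalisation (adjusted p = 0.067). Hdc, which makes histamine, had an interaction of 2.32 ± 0.45 (adjusted p = 0.0098) with a rise of 1.78 in LSK.

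Most genes of the cell cycle fell in GMP, and few were called in LSK. Of 29 G2 and mitosis genes, 28 fell in GMP and 1 in LSK, against 9.96% and 1.83% of all probe sets, and the median effects were -1.08 and -0.24. The interaction was higher for 13 and lower for 0 (median 0.79), higher for 16 without GMP KO replicate 1, and for 9 to 19 over the fits without 1 array. Under repeated quantile normalisation it was higher for 8, and with arrays centred for 21. The list mean lay between 8.96 and 9.22 in LSK WT, 8.60 and 8.95 in LSK KO, 9.31 and 9.44 in GMP WT, and 8.16 and 8.58 in GMP KO.

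Cenpe, the motor that carries chromosomes to the spindle equator, was 8.28, 7.97 and 8.04 in LSK WT and 8.20, 7.96 and 8.38 in LSK KO, which overlapped. It was 8.87, 8.79 and 8.85 in GMP WT and 7.40, 7.61 and 7.83 in GMP KO, a fall of 1.22 ± 0.14 (interaction 1.30 ± 0.19, adjusted p = 0.0025). Ttk, a kinase of the spindle checkpoint, fell by 1.26 in GMP and stood at -0.01 in LSK (interaction 1.25, adjusted p = 0.0084). Top2a, the topoisomerase that untangles replicated DNA, fell by 1.16 in GMP and stood at -0.29 in LSK (interaction 0.87, adjusted p = 0.0090). Bub1b, another checkpoint kinase, fell by 1.06 in GMP and stood at -0.20 in LSK (interaction 0.85, adjusted p = 0.0046).

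In the list for DNA replication, 26 of 32 genes fell in GMP and 1 in LSK, with median effects of -0.59 and -0.06, and the interaction was higher for 10 and lower for 0 (median 0.50). That count was 14 without GMP KO replicate 1, 3 without GMP WT replicate 2 or LSK KO replicate 3, 3 under repeated quantile normalisation and 16 with arrays centred. Mcm3, a subunit of the replicative helicase, was 9.66, 9.72 and 9.74 in LSK WT and 9.95, 9.94 and 10.06 in LSK KO, and 10.07, 10.27 and 10.12 in GMP WT and 9.20, 9.70 and 9.72 in GMP KO. The KO arrays lay above WT in LSK, where the difference of 0.28 was not called, and below WT in GMP (interaction 0.90 ± 0.18, adjusted p = 0.011). Of 19 genes of homologous recombination and Fanconi repair, 15 fell in GMP and 1 in LSK, and 8 had a higher interaction (median 0.51). That count was 2 in the fits with the fewest calls, among them those without GMP WT replicate 2 or LSK KO replicate 1, and 4 under repeated quantile normalisation. Gen1, a nuclease that cuts Holliday junctions, fell by 1.70 ± 0.14 in GMP and stood at -0.25 ± 0.14 in LSK (interaction 1.45 ± 0.20, adjusted p = 0.0019). Brca2 fell by 0.55 in GMP and stood at 0.20 in LSK (interaction 0.76, adjusted p = 0.011).

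**Figure D4:**
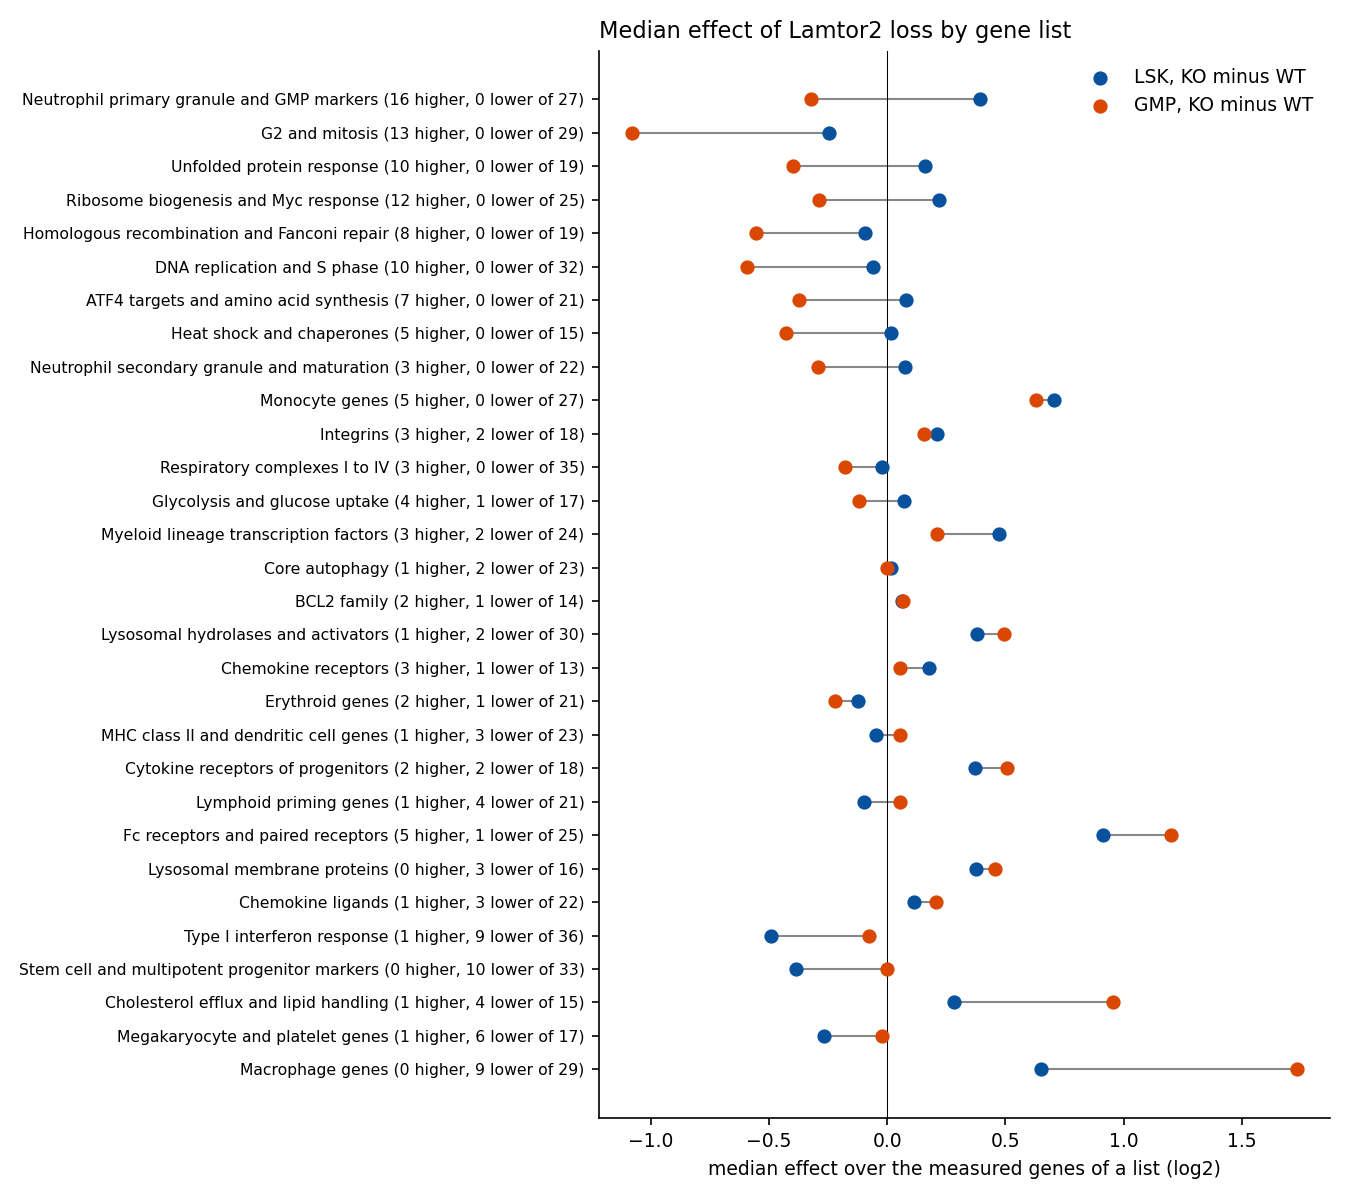
Median KO minus WT (x axis, log2) over the measured genes of each list with at least 3 called members, in LSK (blue) and GMP (orange), with the calls in the interaction in each row label. Rows run from the highest median interaction, of granule and GMP markers, to the lowest, of macrophage genes, whose medians were 0.65 in LSK and 1.73 in GMP.

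Many genes for protein folding, amino acid supply and ribosome assembly fell in GMP, and few were called in LSK. Of 19 genes of the unfolded protein response 11 fell in GMP and 0 in LSK, with median effects of -0.40 and 0.16, and 10 had a higher interaction and 0 a lower one (median 0.63). That count was 10 without GMP KO replicate 1, 10 under repeated quantile normalisation and 10 or 11 in each fit without 1 array. Pdia6, a disulfide isomerase of the endoplasmic reticulum, was 9.76, 9.83 and 9.99 in LSK WT and 9.98, 10.18 and 9.98 in LSK KO, and 11.24, 11.33 and 11.31 in GMP WT and 10.20, 10.48 and 10.46 in GMP KO. The GMP groups stood far apart and the LSK groups overlapped (interaction 1.10 ± 0.15, adjusted p = 0.0018). Dnajc3, an endoplasmic reticulum co-chaperone, fell by 1.01 in GMP and stood at 0.03 in LSK (interaction 1.04, adjusted p = 0.0058), and Hsp90b1, the endoplasmic reticulum form of Hsp90, fell by 0.56 and stood at 0.26 (interaction 0.82, adjusted p = 0.0046). Of 15 heat shock genes 5 were higher and 0 lower (median 0.32), with 1 called without GMP WT replicate 2 and 2 under repeated quantile normalisation.

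Among the 25 members of the list for ribosome biogenesis and Myc targets, 4 rose in LSK and 11 fell in GMP, and 12 had a higher interaction and 0 a lower one (median 0.59). That count was 12 without GMP KO replicate 1, 8 without GMP WT replicate 2 and 6 under repeated quantile normalisation. Dkc1, the pseudouridine synthase of ribosomal RNA, was 9.95, 9.97 and 10.08 in LSK WT, 10.27, 10.26 and 10.43 in LSK KO, 10.33, 10.57 and 10.54 in GMP WT and 9.89, 10.04 and 9.95 in GMP KO. LSK KO arrays were above LSK WT and GMP KO arrays below GMP WT, without overlap, though the LSK difference of 0.32 was not called (interaction 0.84 ± 0.14, adjusted p = 0.0045). Utp20, which takes part in small subunit assembly, rose by 0.32 in LSK and fell by 0.30 in GMP (interaction 0.62 ± 0.11, adjusted p = 0.0062). Of 25 cytosolic ribosomal proteins 0 were called in limma, with 2 at an unadjusted p under 0.05 and a median of 0.02.

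Of 21 targets of ATF4, the factor that mTORC1 and amino acid shortage both engage, 7 were higher and 0 lower (median 0.38), with 3 called without GMP WT replicate 2 and 4 under repeated quantile normalisation. Phgdh, the first enzyme of serine synthesis, was 8.42, 8.49 and 8.58 in LSK WT and 8.55, 8.73 and 8.80 in LSK KO, and 8.93, 9.10 and 9.12 in GMP WT and 8.03, 8.31 and 8.31 in GMP KO. Its GMP groups did not overlap and its LSK groups did (interaction 1.03 ± 0.15, adjusted p = 0.0028). Psat1, which acts next in the same pathway, fell by 0.65 in GMP and stood at 0.23 in LSK (interaction 0.88, adjusted p = 0.0058). In glycolysis 4 of 17 genes were higher and 1 lower (median 0.14), with 1 higher without GMP WT replicate 2, and 2 higher, 0 lower and a median of 0.02 under repeated quantile normalisation. Pfkp, a phosphofructokinase, rose by 0.58 in LSK and stood at -0.23 in GMP (interaction 0.81, adjusted p = 0.014), a call lost under repeated quantile normalisation (adjusted p = 0.052). Of 20 genes of sterol and fatty acid synthesis 1, Fdps, was called, and higher (median 0.26), in 4 of the 12 fits without 1 array. After repeated quantile normalisation 0 of that list were higher and 1 lower. Of 35 genes of respiratory complexes 3 were called, all higher (median 0.15), with 1 without GMP WT replicate 2, and 1 with a median of -0.02 after repeated quantile normalisation. For comparison, 5.14% of all probe sets were called higher.

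Of 33 markers measured for stem cells and multipotent progenitors, 9 fell and 0 rose in LSK, and in GMP 1 fell and 3 rose. The median effects were -0.39 and 0.00, and the interaction was lower for 10 and higher for 0 (median -0.46). It was lower for 12 without GMP KO replicate 1 and for 10 or more in each fit without 1 array. The list mean lay between 8.42 and 8.52 in LSK WT, 7.86 and 8.07 in LSK KO, 6.81 and 6.98 in GMP WT, and 6.86 and 7.07 in GMP KO. All 33 had LSK WT means above the reading of a deleted gene, but only 22 had GMP WT means above it. For the others a fall in GMP could not have been read.

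Bgn, which encodes the proteoglycan biglycan, was 7.34, 7.72 and 7.22 in LSK WT and 5.31, 5.51 and 5.49 in LSK KO. In GMP it was 5.33, 5.24 and 5.19 in WT and 5.23, 5.04 and 5.18 in KO, all below the reading of a deleted gene, and LSK KO came down to that reading as well. The interaction was -1.89 ± 0.17 (adjusted p = 2.4e-04). Ndn, which encodes necdin, a growth suppressor of quiescent stem cells, fell by 1.26 in LSK and stood at 0.14 in GMP, where it too was at that reading (interaction -1.40, adjusted p = 0.0028). Hlf, a stem cell transcription factor that was measurable in both, fell by 0.55 in LSK and stood at 0.28 in GMP (interaction -0.83, adjusted p = 0.018). Other stem cell markers were not called in the interaction or in LSK. The interaction was -0.57 for Mecom, -0.48 for Procr, -0.53 for Slamf1 and -0.16 for Meis1 (adjusted p = 0.33, 0.34, 0.30 and 0.81). Mecom, Procr and Slamf1 were at or below the reading of a deleted gene in both GMP groups. Txnip, which limits glucose uptake, and Pdzk1ip1, a membrane protein of stem cells, differed through GMP: Txnip moved from 9.43, 9.59 and 9.37 to 10.39, 10.84 and 10.53 there (interaction -1.28 ± 0.17, adjusted p = 0.0018), and Pdzk1ip1 rose by 1.03 (interaction -1.43 ± 0.19, adjusted p = 0.0018).

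Of 17 megakaryocyte genes, some of which stem cells express, 6 were called lower, 1, Itgb3, was called higher and 10 were not called (median -0.61). Itgb3 was called in 3 of the 12 fits without 1 array. The lower calls numbered 4 after repeated quantile normalisation or centring, and 2 without GMP WT replicate 2 or LSK KO replicate 3. Of the 17, 12 had GMP WT means above the reading of a deleted gene. Trpc6, a cation channel, fell by 1.76 in LSK to the reading of a deleted gene and was at it in both GMP groups (interaction -1.66 ± 0.28, adjusted p = 0.0051). Vwf, which encodes von Willebrand factor, differed through a rise of 0.76 in GMP (interaction -1.03, adjusted p = 0.010). In the GIMAP family of lymphoid GTPases 2 of 8 were lower and 0 higher (median -0.53). Only 3 of the 8 had GMP WT means above the reading of a deleted gene, so a fall of the others in GMP could not have been read. Gimap1, which was measurable in both populations, was 9.10, 9.20 and 9.12 in LSK WT, 8.30, 8.52 and 8.31 in LSK KO, 6.74, 6.87 and 6.71 in GMP WT and 6.81, 7.51 and 6.79 in GMP KO. It fell in LSK and was not called in GMP (interaction -1.03 ± 0.23, adjusted p = 0.017).

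Of 36 measured interferon-stimulated genes, 16 fell and 0 rose in LSK, and in GMP 5 fell and 2 rose. The median effects were -0.49 and -0.08, and the interaction was lower for 9 and higher for 1, Gbp3 (median -0.38), whose call held in 5 of the 12 fits without 1 array. It was lower for 14 without GMP KO replicate 1 and for 6 without GMP WT replicate 2. The list mean lay between 7.55 and 7.61 in LSK WT, 6.91 and 7.11 in LSK KO, 6.60 and 6.75 in GMP WT, and 6.55 and 6.68 in GMP KO. Of the 36, 33 had LSK WT means and 28 had GMP WT means above the reading of a deleted gene. Every mouse had received pIpC, which induces interferon and so these genes, 14 days before the cells were sorted.

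Ifi27l2a, an interferon-induced membrane protein, was 8.04, 7.68 and 7.86 in LSK WT and 6.03, 6.42 and 6.29 in LSK KO, and 6.33, 6.25 and 6.13 in GMP WT and 5.88, 5.94 and 6.51 in GMP KO. The LSK groups were separated by more than 1 log2 unit and the GMP groups overlapped (interaction -1.49 ± 0.23, adjusted p = 0.0036). Oas2, an enzyme that senses double-stranded RNA, fell by 1.08 in LSK and stood at 0.26 in GMP (interaction -1.34 ± 0.21, adjusted p = 0.0042), and Ifi27 fell by 1.13 and stood at -0.24 (interaction -0.89, adjusted p = 0.0071). A pair of GAAA tetramers with 2 bases of any kind between them, the core of the interferon-stimulated response element, was in 14 of the 31 promoter windows of this list (45.2%) on either strand, against 3.27% of the windows of all genes tested. It was in 5.06% of the windows of genes called lower.

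**Figure D5:**
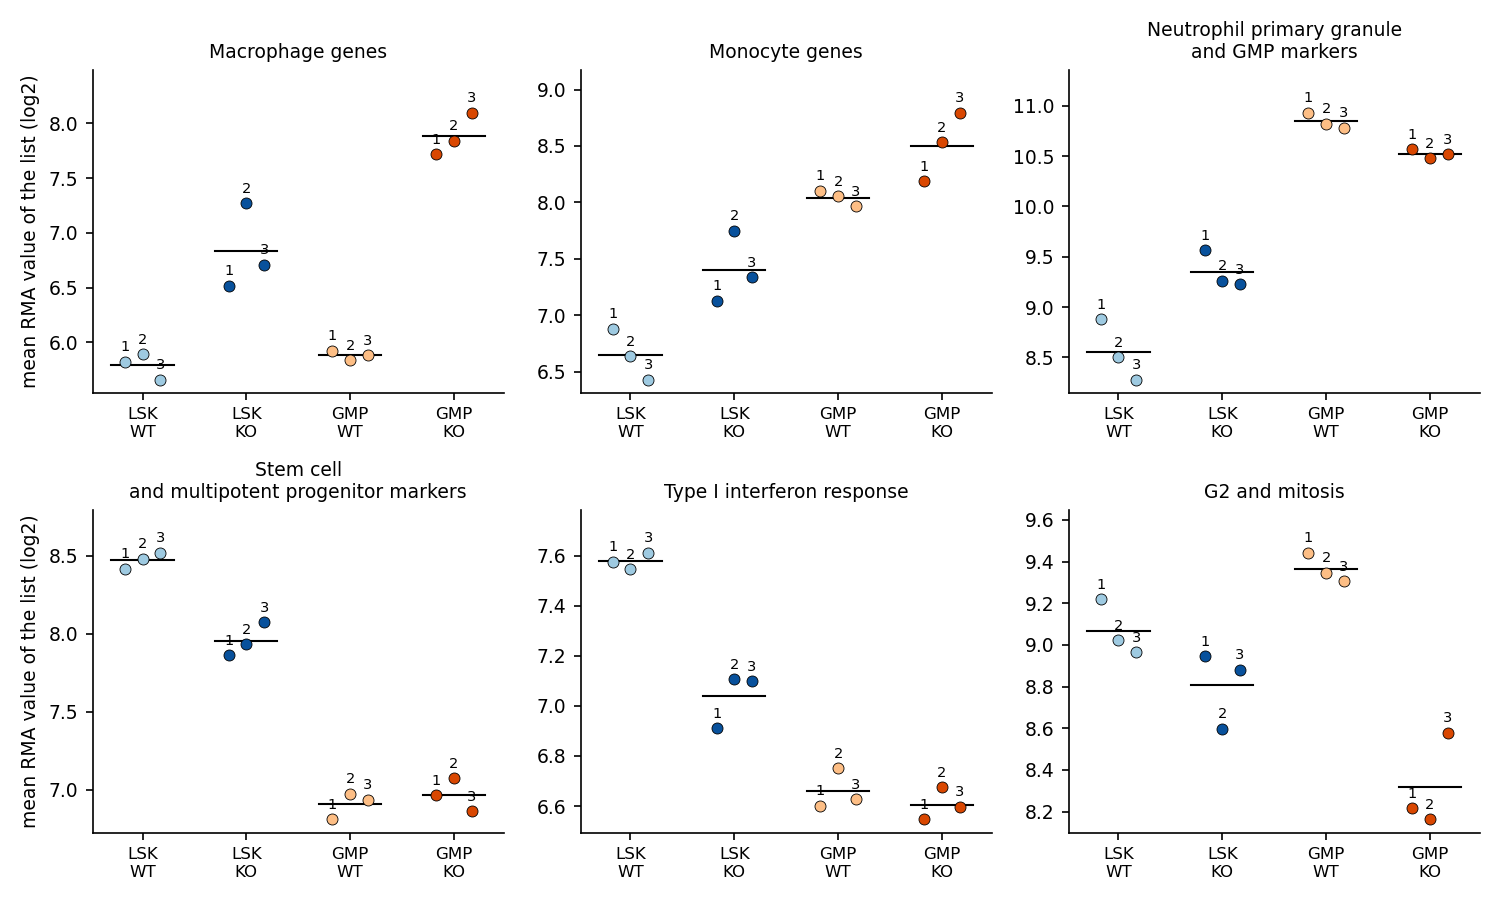
Mean RMA value (y axis, log2) over the measured genes of 6 lists in each array, with the replicate number above each point and the group mean as a line. The granule and GMP marker list is higher in LSK KO and lower in GMP KO than in WT, the macrophage list is higher in both, and the stem cell and interferon lists are lower in LSK KO while their GMP ranges overlap.

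At 67 probe sets, for 66 genes, Lamtor2 loss was called in opposite directions in the 2 populations. Met was 5.88, 6.09 and 5.65 in LSK WT and 6.63, 6.29 and 6.63 in LSK KO, and 8.88, 8.95 and 8.85 in GMP WT and 7.41, 7.12 and 7.55 in GMP KO. It rose by 0.64 ± 0.14 in LSK and fell by 1.53 ± 0.14 in GMP with no overlap in either (interaction 2.18 ± 0.20, adjusted p = 2.4e-04). Tfrc, the transferrin receptor, was 8.63, 8.70 and 8.64 in LSK WT, 9.30, 9.15 and 9.47 in LSK KO, 10.14, 10.04 and 10.05 in GMP WT and 9.05, 9.16 and 9.44 in GMP KO. GMP lay above LSK among WT arrays, and the ranges of the KO arrays overlapped (interaction 1.51 ± 0.16, adjusted p = 5.5e-04). Lbp, which binds bacterial lipopolysaccharide, rose by 0.60 in LSK and fell by 0.49 in GMP, and B3gnt2, which extends glycan chains, rose by 0.36 and fell by 0.63.

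In the other direction, Hacd4, an enzyme that makes very long fatty acids, was 7.89, 7.83 and 7.52 in LSK WT and 6.40, 6.48 and 6.79 in LSK KO, and 5.64, 5.83 and 5.51 in GMP WT and 7.40, 6.96 and 7.60 in GMP KO. KO exchanged the order of the populations: LSK was above GMP in WT and below it in KO (interaction -2.85 ± 0.23, adjusted p = 2.2e-04). Rtp4, an interferon-stimulated chaperone of receptors, was 8.79, 8.68 and 8.86 in LSK WT, 6.87, 7.33 and 7.53 in LSK KO, 5.32, 5.77 and 5.50 in GMP WT and 5.93, 6.58 and 6.28 in GMP KO. Its ranges drew together without overlapping (interaction -2.27 ± 0.26, adjusted p = 9.5e-04). Slc27a6, a fatty acid transporter, fell by 1.52 in LSK and rose by 0.45 in GMP, where both means were at or below the reading of a deleted gene (interaction -1.97 ± 0.18, adjusted p = 2.4e-04).

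The probe set of Mir505 fell by 0.94 ± 0.13 in LSK and rose by 0.69 ± 0.13 in GMP (interaction -1.64 ± 0.19, adjusted p = 9.5e-04). Its values were 7.69, 7.68 and 7.83 in LSK WT, 6.62, 6.63 and 7.12 in LSK KO, 6.77, 6.61 and 6.72 in GMP WT and 7.39, 7.55 and 7.24 in GMP KO. The array reads RNA of the locus and does not tell its precursors from the mature arms, which are shown here from RefSeq (GRCm38.p6, chrX:60394416-60394437 and chrX:60394451-60394473, minus strand) with the seed, bases 2 to 8, in capitals.
mmu-miR-505-3p: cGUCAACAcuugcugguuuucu
mmu-miR-505-5p: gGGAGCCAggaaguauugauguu
The arms have different seeds, and which of them changed was not measured.

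Single genes with large interactions lay outside these groups. Ifi209, a member of the HIN-200 family of DNA-binding proteins, was 9.99, 9.96 and 9.83 in GMP WT and 5.26, 5.94 and 6.44 in GMP KO, a fall of 4.05 ± 0.30. In LSK it was 6.34, 5.92 and 5.42 in WT and 4.58, 5.57 and 4.96 in KO, which overlapped (interaction 3.19 ± 0.43, adjusted p = 0.0018). The LSK KO mean was at or below the reading of a deleted gene. It was the 1 member called among 9 measured of its family (median -0.21), whose near-identical paralogues its probe set may also bind. Itga1, the integrin chain that binds collagen, fell by 2.59 ± 0.16 in GMP, from 8.02, 7.74 and 7.57 to 5.45, 4.93 and 5.18, the reading of a deleted gene, where both LSK groups also stood (interaction 2.30 ± 0.23, adjusted p = 4.2e-04). Nucb2, which encodes a calcium-binding protein of the Golgi, fell by 1.52 in GMP and stood at 0.73 in LSK (interaction 2.25 ± 0.29, adjusted p = 0.0018). Ly6a2, a relative of the gene for Sca1 in a family of close copies, fell by 2.49 in GMP (interaction 2.26, adjusted p = 0.020), and its call was lost without GMP WT replicate 1, GMP WT replicate 2 or LSK WT replicate 2.

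Ccr9, the receptor that guides lymphoid progenitors to the thymus, rose in both populations and was higher in LSK KO than in GMP KO. It was 5.07, 4.95 and 5.55 in LSK WT and 8.08, 9.50 and 9.63 in LSK KO, and 4.99, 4.74 and 4.94 in GMP WT and 5.78, 6.36 and 5.75 in GMP KO. Both WT groups were at or below the reading of a deleted gene, so both rises are lower bounds and the size of their difference is uncertain (interaction 2.81 ± 0.46, adjusted p = 0.0047). An immunoglobulin kappa variable segment with an interaction of 2.10 had all 4 group means at or below that reading and was not called with low values raised (0.18, adjusted p = 0.79). Of 18 cytokine receptors of progenitors 2 were higher and 2 lower (median -0.10). Flt3, the receptor for a growth factor of multipotent and dendritic progenitors, was 10.45, 10.46 and 10.49 in LSK WT and 10.41, 10.82 and 10.74 in LSK KO, and 7.49, 7.82 and 7.43 in GMP WT and 8.92, 8.97 and 8.62 in GMP KO. It rose in GMP only (interaction -1.08 ± 0.19, adjusted p = 0.0068).

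In signalling, 1 of 23 genes of ERK feedback and immediate early response and 2 of 22 of the NF-kB pathway were called, all lower in LSK (medians -0.11 and -0.13). Over all probe sets 7.64% were called, with 2.5% lower, and counts this small are not read as a result about these lists. Ier3, an early response gene of both pathways, was 9.51, 9.40 and 9.52 in LSK WT and 9.54, 9.64 and 10.16 in LSK KO, and 7.49, 7.97 and 7.93 in GMP WT and 9.64, 9.97 and 9.84 in GMP KO. Its KO arrays overlapped between the populations (interaction -1.72 ± 0.24, adjusted p = 0.0019). Nfkbia, which encodes the NF-kB inhibitor, rose by 1.02 in GMP and stood at 0.16 in LSK (interaction -0.86, adjusted p = 0.0089). Tnip3, an inhibitor of the same pathway, fell by 2.00 in LSK to the reading of a deleted gene, at which it stood in GMP (interaction -1.96 ± 0.19, adjusted p = 2.4e-04). Among 14 BCL2 family genes 2 were higher and 1 lower (median -0.03), against 5.14% and 2.5% of all probe sets. Bcl2l1, which opposes cell death, rose by 1.01 in GMP and stood at 0.18 in LSK (interaction -0.83, adjusted p = 0.010), and Bid, which promotes it, fell by 0.72 in GMP and stood at 0.15 in LSK (interaction 0.86, adjusted p = 0.011).

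At 286 probe sets Lamtor2 loss was called in the same direction in both populations with no call in the interaction. Gpnmb, a glycoprotein of lysosomes and melanosomes in macrophages, was 4.93, 5.21 and 4.86 in LSK WT and 10.72, 12.14 and 11.38 in LSK KO, and 6.09, 5.07 and 5.26 in GMP WT and 12.72, 12.61 and 12.71 in GMP KO. Both WT groups were at or below the reading of a deleted gene, so the rises of 6.41 ± 0.30 in LSK and 7.20 ± 0.30 in GMP are lower bounds, and their difference could not be read. Among KO arrays, LSK minus GMP was -1.27 ± 0.30 (adjusted p = 0.014). Sulf2, a sulfatase acting on heparan sulfate outside the cell, rose by 2.51 in LSK and 2.47 in GMP, with an interaction of 0.04 (95% interval -0.65 to 0.72, adjusted p = 0.97).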

How the data were processed

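Amplified RNA of sorted cells was read on 12 Affymetrix arrays, 3 for each genotype in each population. The authors deposited 1 table of log2 values made by RMA, per the submitters' processing notes. The sources used here do not name the software or its version. RMA normalises quantiles across arrays, so a shift shared by most genes is removed. Probe sets were named from the platform annotation, with symbols updated through RefSeq gene IDs: of 34760, 21640 had 1 symbol (21553 updated, 87 kept as given), 1321 had several and 11799 were not listed. A single fit of the 4 groups was made with limma 3.58.1 in R 4.3.3 (lmFit and eBayes, 8 residual degrees of freedom), with Benjamini-Hochberg adjustment over all 21640 and a threshold of 0.05. "Rose" and "fell" mean past that threshold.

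Genes were chosen for description as the 12 largest called interactions in each direction and the 8 strongest with opposite calls. Up to 4 called members of each of 48 gene lists (2 where none was called) and cell type markers were added. Not every gene so chosen is named in the text. Ly86 (interaction 2.09), for example, is left out, and its call was lost with low values raised (adjusted p = 0.057). Other list members are named where a count is small and were chosen after their values were seen. The lists hold 1078 entries, 980 of them measured, each gene by its probe set with the highest mean. The members and lists were chosen with earlier results of these data known. Promoter windows and mature miRNAs came from RefSeq tables of GRCm38.p6, and 15562 of the genes tested had a window. The fit was tested on simulated data. Alternatives were other scalings, filters, eBayes settings, array weights, blocks and leaving out each array. The number of arrays limits the precision.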

Additional observations from a re-analysis of the deposited data

Results flagged for a closer look

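The effect of Lamtor2 loss differed between LSK and GMP, by the test of the difference itself, at 1112 probe sets with a higher and 541 with a lower value in LSK. Among genes called in opposite directions in the 2 populations, those with the strongest tests were Hacd4 (interaction -2.85), Met (2.18), Slc27a6 (-1.97), Tfrc (1.51), Mir505 (-1.64), Rtp4 (-2.27), B3gnt2 (0.99) and Lbp (1.09). All 8 were also called in each of the 12 fits that left out 1 array. For Slc27a6 both GMP means were at or below the reading of a deleted gene. For Hacd4 and Rtp4 the GMP WT mean was, so their rises in GMP are lower bounds.

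The report did not use the 13120 probe sets without a single symbol. When all deposited probe sets were fitted together, 369 of these were called, which is 2.81%, with 138 higher and 231 lower in LSK.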

How the results depend on the processing

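The count of called probe sets was 1653, with 1112 higher and 541 lower. Repeating quantile normalisation left 592 higher, centring the arrays gave 1700 higher, and array weights gave 824 lower. Asking for an effect difference of at least 2-fold as well left 404, with 204 higher and 200 lower. Leaving out 1 array gave 785 to 2123 calls, with 476 to 1450 higher and 309 to 771 lower. The calls fell by over 1.5 times without GMP WT replicate 2 (785), LSK WT replicate 2 (923), LSK KO replicate 3 (936), GMP WT replicate 3 (1033), LSK KO replicate 1 (1078) or LSK WT replicate 1 (1092). The other settings gave 1281 to 2226 calls, apart from 1108 under repeated quantile normalisation. Of 141 called genes chosen for description, whether named in the text or not, 94 kept direction and call in every setting run, 102 in every fit without 1 array, and 0 changed direction. Without GMP KO replicate 1 the calls of Hp, Cd86, Cx3cr1 and Bcl2 were lost. The cause of these changes was not tested.

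Whether equal replicate numbers mark 1 mouse could not be settled. The correlations of deviations of same-numbered LSK and GMP samples were -0.005, -0.17 and 0.13 in KO and 0.16, -0.04 and 0.08 in WT. For samples with different numbers they lay between -0.23 and 0.21 in KO and between -0.15 and 0.06 in WT. The deviations are from means of 3 arrays, so these values cannot decide the pairing. With the replicate number as a block 1565 were called (1042 higher, 523 lower), and with a block by mouse, taking equal numbers as 1 mouse, 1281 (818 higher, 463 lower). Low signal limited the rest: both GMP means were at or below the reading of a deleted gene at 37.1% of the probe sets tested.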

Other observations

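Over all probe sets 7.64% were called, against which the counts in lists of other cell types and functions can be read. Of 13 B cell genes 0 were higher and 1, Cd22, was lower (median 0.03), a call that held in 2 of the 12 fits without 1 array and was lost after repeated quantile normalisation or centring (adjusted p = 0.077 and 0.068). Of 18 T and NK cell genes 1, Nkg7, was higher (median -0.06). Of 21 lymphoid priming genes 1 was higher and 4 lower (median -0.13). Blnk, an adaptor of the B cell receptor that macrophages also express, was 5.45, 5.30 and 5.14 in GMP WT and 7.39, 7.55 and 8.07 in GMP KO, and was not called in LSK (interaction -1.93 ± 0.32, adjusted p = 0.0050). Of 23 genes of MHC class II and dendritic cells 1 was higher and 3 lower (median -0.10). Cd83, a marker of mature dendritic cells, rose by 0.76 in LSK and 2.23 in GMP (interaction -1.47, adjusted p = 0.0062). Both rises started from means at or below the reading of a deleted gene and are lower bounds. Of 21 erythroid genes 2 were higher and 1 lower (median -0.08): Cpox, an enzyme of haem synthesis, fell by 0.74 in GMP, and Hemgn, a nuclear protein of erythroid progenitors whose interaction was called in 7 of the 12 fits without 1 array, fell by 0.82 in LSK. Of 22 mast cell, basophil and eosinophil genes 1, Hdc, was higher (median 0.00).

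Of 25 Fc receptors and paired receptors 15 rose in LSK and 16 in GMP, and 5 interactions were higher and 1 lower (median -0.18). Without GMP KO replicate 1 there were 4 higher and 4 lower, and over the fits without 1 array 2 to 5 higher and 1 to 9 lower. Of 18 integrins 3 were higher and 2 lower (median 0.16, and -0.03 after repeated quantile normalisation). Of 13 chemokine receptors 3 were higher and 1, Ccrl2, was lower (median -0.07), and of 18 complement genes 2 were lower (median -0.22). Of 24 myeloid transcription factors 3 were higher and 2 lower (median 0.03). Bhlhe41, a repressor of microglia and tissue macrophages, rose by 2.28 in LSK and 4.42 in GMP (interaction -2.14, adjusted p = 0.011), a call lost with low values raised to the reading of a deleted gene (-1.94, adjusted p = 0.053). Of 16 prostaglandin and leukotriene enzymes 1 was higher and 1 lower (median -0.17): Lta4h, which makes leukotriene B, fell by 0.95 in GMP (interaction 1.03 ± 0.16, adjusted p = 0.0032). Of 10 metallothioneins and zinc regulators 1, Mt1, was higher (median -0.01). It rose by 3.56 in LSK and 1.62 in GMP (interaction 1.94, adjusted p = 0.020), and its call was lost without GMP WT replicate 1 or 2, LSK KO replicate 1 or LSK WT replicate 2 (adjusted p = 0.052 to 0.054). Of 10 CDK inhibitors and other antiproliferative genes 1 was lower (median -0.27): Btg2, which is not a CDK inhibitor. It was called in 3 of the 12 fits without 1 array, over which the list had 0 to 3 lower calls. Of 9 Ly6 genes 2 were higher (median 0.03).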
